A study of Mus musculus with 4 samples.

Results

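The 8 neuronal subunit genes of the nicotinic acetylcholine receptor that the gene list named, Chrna3, Chrna4, Chrna5, Chrna6, Chrna7, Chrnb2, Chrnb3 and Chrnb4, were followed through the superior colliculus of the mouse before and after birth. They were taken by symbol, and all 8 were found among the 31053 genes of the count matrix. The data were single-nucleus RNA sequencing of 4 libraries of C57BL/6J superior colliculus, 1 library for each stage, E19 (embryonic), P4, P8 and P21 (days after birth), made from tissue of several pooled animals with no treatment or engineered allele named in the labels. The labels name the earliest stage E19, while the design text puts E10 in brackets after embryonic day 19, and E19 is used here. The sources used here do not give the number or sex of the animals. The deposited annotation placed 9724 nuclei in 9 classes and 35 subtypes, with 7552 neurons in 13 excitatory subtypes (EN1 to EN13) and 12 inhibitory subtypes (IN1 to IN12).

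Nicotinic receptors are pentameric cation channels that open when acetylcholine binds between subunits. The subunit encoded by Chrna7 can form channels on its own, whereas most other α subunits assemble with β subunits: Chrna4 with Chrnb2 in the common high-affinity receptor of the brain, and Chrna3 with Chrnb4, sometimes with Chrna5 as an accessory subunit, in autonomic ganglia and the medial habenula. Receptors with the Chrna6 and Chrnb3 subunits are known from retinal ganglion cells, which project to the superior colliculus, and from midbrain dopamine neurons. The superior colliculus itself receives cholinergic input. The nuclei of the neurons that send these axons lie outside it, and free RNA in the nuclear suspension was not measured.

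The 4 libraries held 19277512 to 31325079 unique molecular identifiers (UMIs, each standing for 1 captured RNA molecule), with a median of 6828 to 11745 UMIs per nucleus that was lowest at E19 and highest at P21. The 8 genes gave 10902 UMIs, between 0.00974% and 0.0116% of each library. Levels are UMIs summed over the nuclei of a library and class or subtype, per 1000000 UMIs of that sum (CPM), and bracketed ranges are 95% intervals (exact Poisson for levels, exact Clopper-Pearson for shares) that cover counting error only. Because each stage was 1 library, stages were compared with no test and no replicate error. The excitatory and inhibitory labels carried their markers: Slc17a6 and Slc17a7 summed to a median over libraries of 215 CPM in excitatory neurons against 30.3 CPM in inhibitory ones, and Gad1, Gad2 and Slc32a1 to 812 CPM in inhibitory neurons against 40.7 CPM in excitatory ones. Of the cell barcodes, 9 were seen in more than 1 library.

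On the mouse genome (GRCm38), 5 of the 8 genes lie in 2 groups. Chrna5 (chromosome 9, 54980880 to 55007779, plus strand), Chrna3 (55010111 to 55026562, minus strand) and Chrnb4 (55028154 to 55048779, minus strand) are neighbours, with gaps of 2331 and 1591 bases. Chrnb3 (chromosome 8, 27368711 to 27399730, plus strand) and Chrna6 (27403212 to 27413944, minus strand) end 3481 bases apart. Chrna4 (chromosome 2, 181018380 to 181043546), Chrna7 (chromosome 7, 63098692 to 63212569) and Chrnb2 (chromosome 3, 89746195 to 89764632) stand alone, all on the minus strand. Chrnb2 overlaps Adar on the opposite strand by 7252 bases, Chrnb4 overlaps the antisense gene Gm47877 by 8647 bases, and Chrna7 overlaps Gm44741 on the same strand by 2127 bases, so UMIs of these 3 subunits could be shared with the overlapping gene if strand was not used in counting.

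The stretches before the start sites of Chrna3 and Chrna5 are shown because these neighbours, read from opposite strands, both had few UMIs in excitatory neurons at P21 (13 and 1) and more in inhibitory neurons (277 and 28). Each sequence is the 250 bases up to a RefSeq start on GRCm38.p6, written 5′ to 3′ in the direction of the gene, and capitals mark GC boxes (GGGCGG or its reverse complement CCGCCC, a motif that Sp-family factors can bind). The Chrna3 window is chr9:55026563-55026812 on the minus strand, and the Chrna5 windows are chr9:54980630-54980879 and chr9:54981238-54981487 on the plus strand, for 2 annotated starts.
Chrna3: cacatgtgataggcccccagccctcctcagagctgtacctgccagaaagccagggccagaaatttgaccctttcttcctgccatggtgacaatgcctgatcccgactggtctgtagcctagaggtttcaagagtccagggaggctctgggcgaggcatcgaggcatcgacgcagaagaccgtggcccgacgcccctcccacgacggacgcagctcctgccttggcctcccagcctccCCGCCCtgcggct
Chrna5, upstream start: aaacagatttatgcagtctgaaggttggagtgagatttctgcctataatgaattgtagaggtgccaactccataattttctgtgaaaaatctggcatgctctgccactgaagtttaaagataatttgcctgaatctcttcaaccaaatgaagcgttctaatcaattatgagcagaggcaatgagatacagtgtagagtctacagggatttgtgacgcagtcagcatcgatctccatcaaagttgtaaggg
Chrna5, downstream start: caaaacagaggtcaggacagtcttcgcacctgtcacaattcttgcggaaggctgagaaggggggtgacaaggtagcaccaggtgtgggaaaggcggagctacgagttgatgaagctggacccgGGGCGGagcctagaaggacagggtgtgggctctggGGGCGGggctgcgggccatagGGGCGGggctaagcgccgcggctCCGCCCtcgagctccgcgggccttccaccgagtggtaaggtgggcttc
The Chrna3 window held 1 GC box, beginning 13 bases before the start. The upstream Chrna5 window held 0 and had a GC content of 40%, and the downstream Chrna5 window held 4, beginning 127, 92, 71 and 48 bases before the start, at a GC content of 65.2%. Of all 32851 RefSeq windows of this length, 32.7% held at least 1 GC box and 4.09% held 4 or more. Of the 8 subunits, 6 had a window in the table: Chrna4 held 3 boxes, Chrna7 1, and Chrnb2 and Chrnb4 0. Not all windows are plain upstream stretches: in the GENCODE annotation those of Chrna4 and the downstream Chrna5 start lie inside the gene, with 128 and 22 of their 250 bases in a UTR, that of Chrnb4 has 235 bases in a UTR, and that of Chrna7 has 43 bases inside the gene. A match of letters is a description of the sequence only.

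The share of a gene's UMIs that came from neurons ran from 87.3% for Chrnb4 to 97.4% for Chrna7. Neurons were 7552 of the 9724 nuclei and held most UMIs of all genes together, so these shares are not read as enrichment. Chrna7 gave 6486 UMIs, Chrna4 1332, Chrna3 1286, Chrnb2 1111, Chrnb3 333, Chrna6 159, Chrna5 116 and Chrnb4 79. Longer genes give more UMIs in nuclear RNA, since intronic reads were counted, so levels between subunits were compared per kilobase of gene span. On that scale, over all neurons, Chrna3 stood at 0.809 CPM per kb, Chrnb2 at 0.644, Chrna7 at 0.624 and Chrna4 at 0.549, whereas Chrna6 was at 0.153, Chrnb3 at 0.116, Chrna5 at 0.0460 and Chrnb4 at 0.0376 CPM per kb. Per length, then, 4 subunits lay close together and the other 4 were several times lower.

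**Figure D1:**
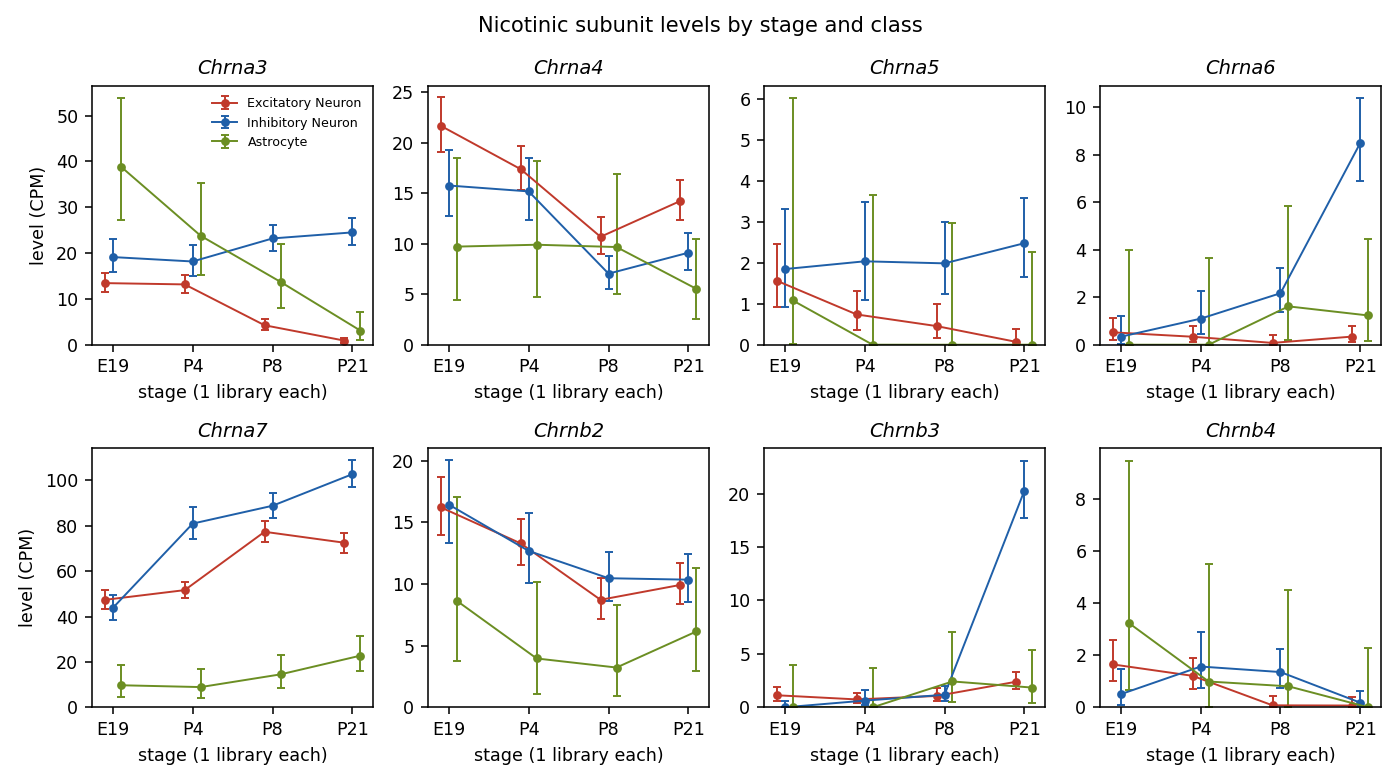
Level of each subunit in CPM (vertical axis, starting at 0) at the 4 stages (horizontal axis) in excitatory neurons, inhibitory neurons and astrocytes; points are 1 library each and bars are exact Poisson 95% intervals. Chrna3 ends at 0.890 CPM in excitatory neurons and at 24.5 CPM in inhibitory neurons at P21, Chrna6 and Chrnb3 are highest in inhibitory neurons at P21, and the astrocyte Chrna3 level goes from 38.9 to 3.08 CPM.

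Chrna7, the subunit that can form channels alone, was higher at later stages in both neuron classes. In excitatory neurons it measured 47.3, 51.6, 77.3 and 72.5 CPM in order of stage (E19, P4, P8, P21). The inhibitory levels were 43.8, 80.9, 88.8 and 102.7 CPM in the same order. The classes were level at E19 within counting error, and the inhibitory level was above the excitatory one at P4, P8 and P21. The P21 to E19 ratio was 1.53 (1.38 to 1.70) in excitatory and 2.35 (2.05 to 2.69) in inhibitory neurons. Subtypes shared the direction: Chrna7 was higher at P21 than at E19 in 11 of 11 excitatory and 12 of 12 inhibitory subtypes with at least 20 nuclei at both stages, and the interval of the log2 ratio (5 CPM added to both values) was above 0 in 4 and 9 of them. That median log2 ratio was 0.64 over the excitatory and 1.18 over the inhibitory subtypes.

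Chrna7 was found in every neuron subtype, from 22.9 ± 12.3 CPM in EN13 to 150 ± 51.6 CPM in IN4 (mean ± SD over libraries, n = 4 for both). Since the libraries are stages, this SD holds the change with stage as well as error. In IN4 the levels were 86.3, 131, 193 and 191 CPM in order of stage. IN9 averaged 144 ± 77.1 CPM (n = 4), with 52.0 CPM at E19 and 220 CPM at P21. EN5 averaged 106 ± 51.2 CPM (n = 4) and EN9 101 ± 22.5 CPM (n = 4), the highest of the excitatory subtypes. None of the 24 pairs of neighbours in the order of the 25 neuron subtypes differed by more than the larger SD of the pair, so only subtypes far apart in the order are separated. At P21, 71.3% (61.0 to 80.1) of 94 IN4 nuclei had a Chrna7 UMI, against 7.32% (4.59 to 10.97) of 287 astrocytes, at median depths of 11423 and 5525 UMIs. Thinned to 2300 UMIs per nucleus, the shares were 23.4% and 3.14%. Outside neurons, oligodendrocyte precursors (OPC) had the highest mean, 37.1 ± 15.4 CPM (n = 4).

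Chrna4 and Chrnb2, whose products assemble with each other, were spread over all neuron subtypes at low levels and were lower at P21 than at E19 in both classes. Chrna4 in excitatory neurons measured 21.7, 17.4, 10.7 and 14.2 CPM in order of stage. Chrna4 in inhibitory neurons measured 15.8, 15.2, 7.04 and 9.11 CPM in the same order. The lowest stage was P8 in both classes and the excitatory level was the higher in each of the 4 libraries, at P4 within counting error. Chrnb2 measured 16.2, 13.3, 8.72 and 9.93 CPM in excitatory neurons. In inhibitory neurons it measured 16.4, 12.7, 10.5 and 10.4 CPM, and the classes overlapped within counting error at each stage. On the log2 scale with 5 CPM added, P21 minus E19 was -0.47 (-0.68 to -0.27) and -0.56 (-0.84 to -0.27) for Chrna4, and -0.51 (-0.73 to -0.29) and -0.48 (-0.76 to -0.20) for Chrnb2, in excitatory and inhibitory neurons. The median of all genes tested in the same way was -0.09 and -0.07.

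Over subtypes, Chrna4 ranged from 4.62 ± 3.43 CPM in IN9 (n = 4 libraries), the inhibitory subtype second highest in Chrna7, to 21.7 ± 5.69 CPM in EN7 (n = 2), and no neighbours in the order differed beyond their spread. Chrnb2 ranged from 1.16 ± 1.42 CPM in EN13 (n = 4) to 27.7 ± 7.33 CPM in IN12 (n = 4). EN13, with 3 Chrnb2 UMIs in all libraries, lay below the next subtype, EN9 at 6.76 ± 3.23 CPM (n = 4), by more than the larger SD, the sole such step among 24. Across the 25 neuron subtypes the summed levels of Chrna4 and Chrnb2, on the log2(CPM + 5) scale, had a Pearson r of 0.19, given as a description of subtypes that share libraries. Single nuclei gave overlapping intervals for nuclei with and without a Chrna4 UMI: in excitatory neurons at E19, 12.7% (8.52 to 17.9) of 213 nuclei with a Chrna4 UMI also had a Chrnb2 UMI, against 13.3% (11.4 to 15.5) of 1125 nuclei without. At P21 the shares were 22.7% (16.6 to 29.7) and 16.9% (13.7 to 20.4), at median depths of 22387 and 18892 UMIs.

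Outside neurons, Chrna4 was high in the oligodendrocyte lineage of the 2 early libraries. OPC held 42.0, 35.7, 15.6 and 20.03 CPM in order of stage, from 8, 6, 8 and 6 UMIs. The OPC mean of 28.3 ± 12.5 CPM (n = 4) was above that of every neuron subtype, but within 1 SD of EN7. In the whole lineage Chrna4 was at 40.7 CPM (17.6 to 80.2) at E19 and 4.68 CPM (2.33 to 8.37) at P21, and OPC were 46 of 47 nuclei of the lineage at E19 and 64 of 306 at P21.

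**Figure D2:**
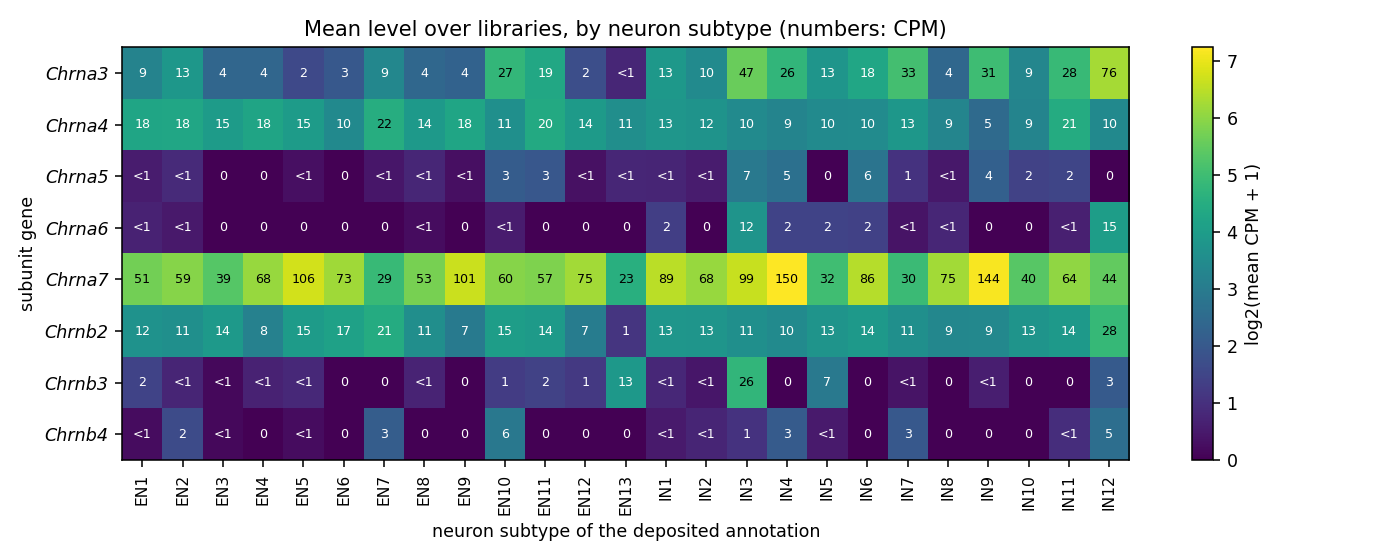
Mean level over libraries of the 8 subunits (rows) in the 25 neuron subtypes (columns), in CPM as printed numbers and as colour on a log2(CPM + 1) scale, over libraries with at least 20 nuclei of a subtype. Chrna7 is found across all columns, with its highest mean in IN4, Chrna3 is highest in IN12 and IN3, Chrnb3 in IN3 and EN13, and Chrna6 in IN12 and IN3.

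Chrna3, the α subunit of ganglionic and habenular receptors, was lower in excitatory neurons at the later stages and about level in inhibitory neurons. In excitatory neurons it measured 13.4, 13.2, 4.25 and 0.890 CPM in order of stage, from 155, 196, 56 and 13 UMIs. In inhibitory neurons it measured 19.1, 18.2, 23.2 and 24.5 CPM, from 114, 116, 257 and 277 UMIs. The classes were within 1.42-fold (1.11 to 1.82) of each other at E19 and 1.38-fold (1.09 to 1.75) at P4, and the inhibitory level was 5.46-fold (4.08 to 7.43) the excitatory level at P8 and 27.5-fold (15.8 to 52.4) at P21. The excitatory level was 15.1-fold (8.58 to 29.0) lower at P21 than at E19. Of the 8 subunits, 4 reached 5 CPM in excitatory neurons at E19 or P21, and Chrna3 was the member among these with a log2 ratio at or below -1, at -1.65, where 9.35% of all genes tested passed that fold downward. It reached 5 CPM through E19 alone, so it had to be lower at P21 and the count is a description. Upward, 0 members passed it, where 4.64% of all genes did.

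Among the 11 excitatory subtypes compared, Chrna3 was lower at P21 than at E19 in 6 and higher in 2, with a counting interval below 0 in 4 and a median log2 ratio of -0.58. With subtypes weighted equally the class log2 ratio was -0.96 in place of -1.65. EN1, the largest, measured 14.2, 10.8, 8.72 and 0.293 CPM in order of stage, the last from 1 UMI in 138 nuclei. EN2 measured 22.6, 20.1, 10.7 and 0 CPM, where 0 UMIs in 36 nuclei allow up to 4.98 CPM. At P21, 6 of 11 excitatory subtypes with at least 20 nuclei had 0 Chrna3 UMIs and the highest was at 3.71 CPM, whereas the highest at E19 was 22.6 CPM. Thinned to 2300 UMIs, 2.99% of excitatory nuclei had a Chrna3 UMI at E19 and 0.293% at P21. The unthinned shares were 10.3% and 1.61%, at median depths of 8052 and 19601 UMIs, so the share was lower in the deeper library.

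Inhibitory subtypes differed in their Chrna3 level, and the highest ones, IN12 and IN3, did not hold most of its UMIs in any library: the other 10 subtypes held 92 of 114 at E19, 94 of 116 at P4, 142 of 257 at P8 and 139 of 277 at P21. IN12, the highest subtype for this gene, measured 85.3, 66.1, 66.2 and 87.4 CPM from E19 to P21 (mean 76.3 ± 11.7, n = 4). IN3 followed with 39.7, 37.9, 51.0 and 58.7 CPM (mean 46.8 ± 9.81, n = 4). IN12 exceeded IN3, and IN3 exceeded the next subtype, IN7 (32.6 ± 10.3 CPM, n = 4), by more than the larger SD, and these were the sole such steps among 24. IN4 differed most between stages, with 2.88, 22.2, 34.1 and 45.8 CPM in order of stage, from 1, 10, 27 and 52 UMIs, a ratio of 15.9 with a counting interval of 2.74 to 641. The sign of the change in the inhibitory class depended on how subtypes were weighted: Chrna3 was lower at P21 than at E19 in 8 of 12 inhibitory subtypes, the class log2 ratio of 0.29 (0.04 to 0.54) became -0.090 with subtypes weighted equally and -0.053 without IN3, and IN3 went from 7.50% of inhibitory nuclei at E19 to 17.0% at P21. IN3 held 10.5% of inhibitory Chrna3 UMIs at E19 and 42.2% at P21.

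**Figure D3:**
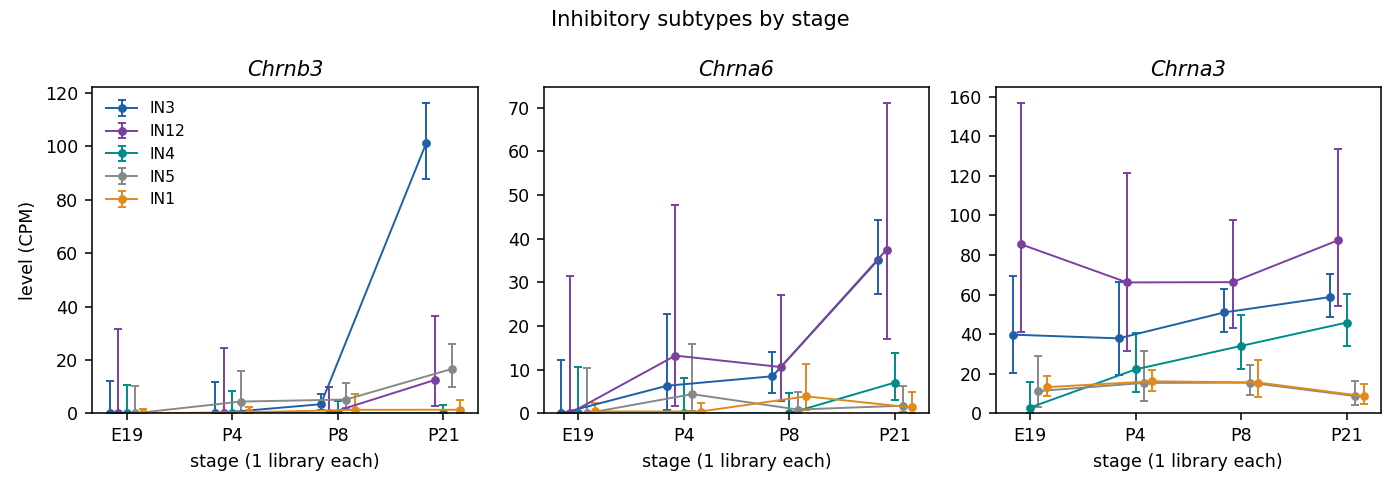
Level in CPM (vertical axis, starting at 0) of Chrnb3, Chrna6 and Chrna3 at 4 stages (horizontal axis) in 5 inhibitory subtypes picked after their values were seen; points are 1 library each and bars are exact Poisson 95% intervals. Chrnb3 in IN3 is at 101.3 CPM at P21 and at most 3.40 CPM in the 3 earlier libraries; Chrna3 in IN12 lies between 66.1 and 87.4 CPM in all 4 libraries.

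The other genes of the chromosome 9 group were far lower per kilobase of gene span. Over all neurons, Chrna5 was at 0.0460 and Chrnb4 at 0.0376 CPM per kb, against 0.809 for Chrna3. Chrna5, the accessory subunit, measured 1.56, 0.738, 0.455 and 0.0685 CPM in excitatory neurons, from 18, 11, 6 and 1 UMIs, and 1.85, 2.04, 1.99 and 2.48 CPM in inhibitory neurons, from 11, 13, 22 and 28 UMIs. Like Chrna3, it was lowest in excitatory neurons at P21 and highest in inhibitory neurons at P21, on far fewer UMIs. Its highest subtype was IN3 at 6.63 ± 2.49 CPM (n = 4), and IN12, the highest for Chrna3, had 0 Chrna5 UMIs in all libraries. IN6 and IN4 followed at 5.94 and 5.35 CPM, and no neighbours in the order differed beyond their spread. IN6 was above IN3 at P8 (7.39 against 3.40 CPM) and at P21 (9.52 against 7.02 CPM). Of 170 inhibitory nuclei with a Chrna3 UMI at P21, 7.06% (3.70 to 12.01) also had a Chrna5 UMI, against 2.11% (1.09 to 3.65) of 570 without, at median depths of 13863 and 14099 UMIs. This pools subtypes, and IN3 held 42.2% of the Chrna3 and 50% of the Chrna5 UMIs. Within IN3 at P21 the shares were 10.4% (4.30 to 20.3) and 5.08% (1.06 to 14.1). Within IN4 they were 8.11% (1.70 to 21.9) and 5.26% (1.10 to 14.6), and both pairs of intervals overlapped. The part of subtype in the pooled difference was not tested. In inhibitory neurons at E19, P4 and P8 these shares were 1.01% and 1.13%, 5.26% and 1.09%, and 1.00% and 1.91%, with overlapping intervals. Excitatory neurons gave 2.90% and 0.67%, 1.40% and 0.75%, 3.92% and 0.49%, and 0% and 0.15% from E19 to P21, also with overlapping intervals. No test was made.

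Chrnb4, the usual β partner of Chrna3 in ganglia, was at most 1.65 CPM in either neuron class of any library. In excitatory neurons it gave 19, 18, 1 and 1 UMIs at the 4 stages (1.65, 1.21, 0.0758 and 0.0685 CPM), and in inhibitory neurons 3, 10, 15 and 2 UMIs. At E19, 15 of the 22 neuronal UMIs came from EN2, at 7.07 CPM (3.95 to 11.7), a subtype that also held Chrna3. At P21, 0 of 67 IN3 nuclei with a Chrna3 UMI had a Chrnb4 UMI, which allows a share of up to 5.36% by the upper 95% bound. Chrnb4 had its highest subtype mean in EN10, 6.48 ± 13.0 CPM (n = 4), which came from the P4 library alone and is 0 without it.

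EN10 at P4 stood apart for both genes. Chrna3 in EN10 measured 0, 95.7, 8.35 and 3.71 CPM in order of stage, and Chrnb4 0, 25.9, 0 and 0 CPM. Within the 60 EN10 nuclei of the P4 library, 7 of 8 nuclei with a Chrnb4 UMI also had a Chrna3 UMI, against 12 of 52 without. The 15 nuclei with a UMI of Chat, the acetylcholine-synthesizing enzyme, or of Slc5a7, the choline transporter, a split made after the values were seen, held 36 of the 48 Chrna3 UMIs and 12 of the 13 Chrnb4 UMIs. That is 352 CPM of Chrna3 and 117 CPM of Chrnb4 in the 15 nuclei, against 30.0 and 2.50 CPM in the other 45. The summed level of a list of medial habenula and cholinergic markers was high in the same library, most of it from Nwd2. The list was Tac2, Gpr151, Nwd2, Calb2, Slc5a7, Chat and Slc18a3. In EN10 they summed to 2293 CPM at P4 and to 114, 52.2 and 31.5 CPM at E19, P8 and P21. Of the 7, 6 were detected at P4, with Nwd2 at 2135 CPM and the others at 1.99 to 55.8 CPM. Slc18a3 was at 0. Tac2, Gpr151 and Chat were at 0 in EN10 at the other 3 stages, while Calb2 was at 34.8 CPM at E19 and 41.9 CPM at P4. The part of these nuclei in the result was not tested beyond leaving the subtype out: without EN10 the excitatory Chrna3 levels were 13.8, 10.3, 4.09 and 0.782 CPM, and the excitatory Chrnb4 level at P4 went from 1.21 to 0.347 CPM.

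**Figure D4:**
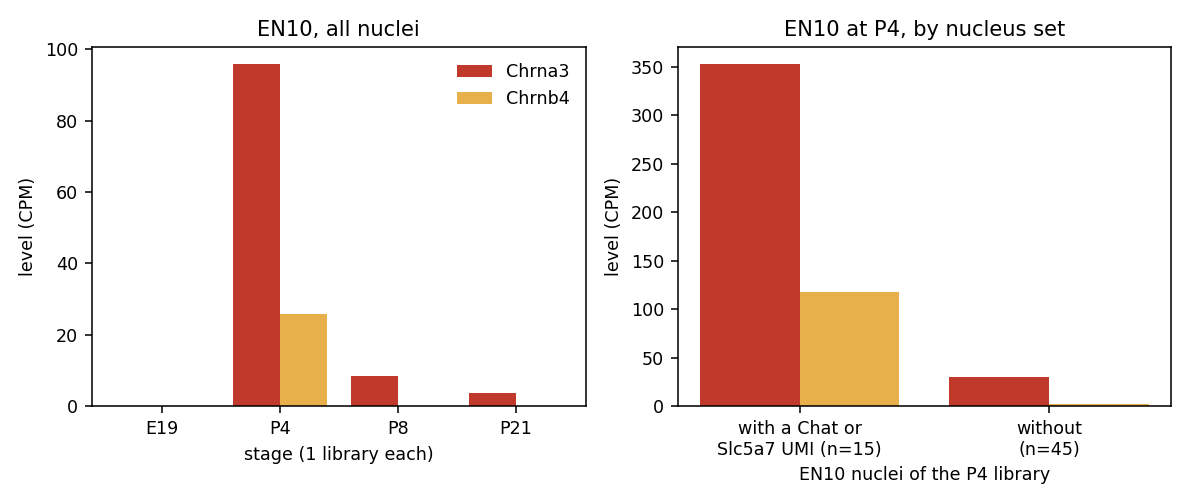
Level in CPM of Chrna3 and Chrnb4 (vertical axes, starting at 0) in EN10 by stage (left) and in EN10 nuclei of the P4 library with and without a Chat or Slc5a7 UMI (right); each bar is 1 sum of UMIs with no replicate. P4 stands above the other stages, and the 15 nuclei on the right hold 352 CPM of Chrna3 against 30.0 CPM in the other 45.

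Chrna3 was also found in astrocytes, where it was lower at each later stage. Astrocytes measured 38.9 CPM (27.2 to 53.8) at E19, 23.8 at P4, 13.7 at P8 and 3.08 (0.998 to 7.18) at P21, from 36, 24, 17 and 5 UMIs, a 12.6-fold (4.94 to 41.3) difference between E19 and P21. At E19 the astrocyte level was 2.03-fold (1.36 to 2.98) that of inhibitory neurons, and at P21 it was 0.125 (0.0404 to 0.296) of it. Fibrous astrocytes led with 68.2, 35.5, 27.2 and 8.82 CPM, on few counts. The E19 value came from 13 UMIs in 8 of 41 nuclei, and the 5 nuclei with the most held 76.9% of them. The neuronal markers Rbfox3, Snap25 and Syt1 summed to 307 to 364 CPM in astrocytes over the 4 libraries and to 1728 to 2843 CPM in excitatory neurons. The part of RNA from other cells in the astrocyte counts was not tested. Oligodendrocyte-lineage nuclei held 5.09, 0, 2.73 and 2.13 CPM of Chrna3.

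Chrnb3 and Chrna6, neighbours on chromosome 8, had few counts before P21 and were highest in inhibitory neurons at P21. Chrnb3 in inhibitory neurons measured 0, 0.626, 1.17 and 20.3 CPM in order of stage, from 0, 4, 13 and 229 UMIs. With 0 UMIs at E19 set to 3 counts for that class, the P21 level was at least 40.3-fold higher, and it was 17.3-fold (9.90 to 32.9) the P8 level. Chrna6 measured 0.335, 1.10, 2.17 and 8.49 CPM, from 2, 7, 24 and 96 UMIs, and P21 was 25.3-fold (6.82 to 212) the E19 level and 3.92-fold (2.49 to 6.42) the P8 level. In excitatory neurons Chrna6 stayed between 0.0758 and 0.520 CPM, and Chrnb3 between 0.738 and 2.40 CPM. Of the 8 subunits, 6 reached 5 CPM in inhibitory neurons at E19 or P21, and Chrna6, Chrna7 and Chrnb3 of these had a log2 ratio at or above 1, where 5.1% of all genes tested passed that fold upward and 10% downward. Chrna6 and Chrnb3 reached 5 CPM through P21 alone and so had to be higher there, and nothing is read from that count.

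IN3 held most of the P21 counts. Chrnb3 in IN3 measured 0, 0, 3.40 and 101.3 CPM, from 0, 0, 6 and 202 UMIs, at least 10.2-fold above E19 with 3 counts set for that subtype and 29.8-fold (13.5 to 82.3) above P8. Chrna6 in IN3 measured 0, 6.31, 8.49 and 35.1 CPM, from 0, 2, 15 and 70 UMIs, and P21 was 4.14-fold (2.34 to 7.78) the P8 level. IN3 made up 17.0% of inhibitory nuclei at P21 and held 88.2% of their Chrnb3 UMIs and 72.9% of their Chrna6 UMIs. Without IN3, the inhibitory level at P21 was 2.90 CPM for Chrnb3 and 2.79 CPM for Chrna6. The IN3 mean of Chrnb3, 26.2 ± 50.1 CPM (n = 4), is 1.13 CPM without P21, so this subtype's lead rests on that library.

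The P21 signal in IN3 came from a part of its nuclei and was not held by 1. Chrnb3 UMIs were found in 47 of 126 IN3 nuclei, 35 of them with 2 or more and 15 with 5 or more. The nucleus with the most held 20, and without it the level was 92.5 CPM. The 5 nuclei with the most held 33.7% of the Chrnb3 UMIs. The share with a Chrnb3 UMI was 37.3% (28.9 to 46.4), against 1.05% (0.216 to 3.02) of astrocytes, at median depths of 15753 and 5525 UMIs, and thinned to 2300 UMIs the shares were 11.1% (6.21 to 17.9) and 0.697%. Among other neurons at P21, EN13 had a share of 21.6% (9.83 to 38.2) and IN5 of 14.8% (7.90 to 24.4). Thinned to 2300 UMIs, these were 5.41% (0.661 to 18.2) and 6.17% (2.03 to 13.8), with intervals that overlapped that of IN3. At P8 the thinned IN3 share was 0.930% (0.113 to 3.32). Chrna6 was found in 45 of the 126 nuclei, none with more than 4 UMIs.

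Chrna6 was counted in a larger share of IN3 nuclei with Chrnb3 than of those without, with no test made. At P21, 25 of the 47 IN3 nuclei with Chrnb3 also had Chrna6, 53.2% (38.1 to 67.9), against 20 of 79 without Chrnb3, 25.3% (16.2 to 36.4). The nuclei with Chrnb3 were deeper, with a median of 17637 against 12990 UMIs, and the part of depth in this difference was not tested. For Chrna3 the intervals overlapped, at 51.1% (36.1 to 65.9) with and 54.4% (42.8 to 65.7) without Chrnb3, as they did for Chrna7, at 66.0% (50.7 to 79.1) and 69.6% (58.2 to 79.5). These shares describe nuclei of 1 library and carry no test.

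Smaller signals of the chromosome 8 genes lay elsewhere. EN13 held Chrnb3 at 0, 16.2, 11.6 and 26.1 CPM from E19 to P21, from 0, 3, 8 and 15 UMIs, and was the subtype with the least Chrnb2 and the least Chrna7. IN5 held Chrnb3 at 0, 4.39, 5.16 and 16.6 CPM. IN12 had the highest Chrna6 mean, 15.3 ± 15.8 CPM (n = 4), from 0, 2, 4 and 9 UMIs. That mean was 7.94 CPM without P21, and at P21 5 of the 9 UMIs came from 1 nucleus, without which the level of 37.5 CPM was 17.1 CPM. IN4, the leading subtype for Chrna7, had 0 Chrnb3 UMIs in all libraries. Over the 25 subtypes Chrna6 had a Pearson r of 0.63 with Chrnb3 and 0.69 with Chrna3, and Chrna3 had 0.64 with Chrnb4 and 0.55 with Chrna5. These values describe points that share libraries and depth.

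The 2 neuron classes were measured side by side in each library, which allowed a test of the class difference with library as a block (edgeR's quasi-likelihood test on summed counts, 4 libraries of different stages, Benjamini-Hochberg over 14799 genes). Chrna4 passed the threshold of 0.05 and was lower in inhibitory neurons in 4 of 4 libraries, at P4 within counting error. Its log2 fold change was -0.52 ± 0.10 (SE), with an adjusted p of 0.0113 in edgeR. Its mean was 16.0 ± 4.67 CPM (SD, n = 4) in excitatory neurons against 11.8 ± 4.36 CPM in inhibitory ones. It was 1 of 7 subunits tested, where 17.2% of all genes tested were called, 7.72% as higher and 9.48% as lower in inhibitory neurons. Chrna6 did not pass the filter on low counts. Without the P8 library the Chrna4 call was lost, at an adjusted p of 0.0550 in edgeR.

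Chrna3 averaged 7.93 ± 6.35 CPM (SD, n = 4) in excitatory neurons against 21.2 ± 3.08 CPM in inhibitory ones, a log2 fold change of 1.61 ± 0.51 (SE) that missed the threshold (edgeR adjusted p = 0.0667), though it was higher in inhibitory neurons in 4 of 4 libraries. Chrna5 was alike, at 1.70 ± 0.52 (SE), edgeR adjusted p = 0.0579, and higher in 4 of 4 libraries, at E19 within counting error (1.85 against 1.56 CPM). Chrna7 gave 0.28 ± 0.10 (SE, edgeR adjusted p = 0.105) and Chrnb3 1.49 ± 0.70 (SE, edgeR adjusted p = 0.194). Chrnb2 was at 0.02 ± 0.10 and Chrnb4 at 0.48 ± 0.65 (SE). Of the 7, 4 had an unadjusted p under 0.05 in edgeR, where 4545 of all 14799 genes tested did. The median log2 fold change was 0.48 over the 7 subunits and 0.02 over all genes tested. The former is the value of Chrnb4 itself, on 69 neuronal UMIs, so no shift of the subunits as a set is read from it. The test fits 1 class difference over all stages. For Chrna3, Chrna5, Chrna7, Chrnb3 and Chrnb4 the difference in single libraries varied with stage beyond counting error, which was not tested. With 5 CPM added, the log2 ratio of inhibitory over excitatory for Chrna7 was -0.10 (-0.29 to 0.09) at E19 and 0.60 (0.45 to 0.75) at P4. For Chrnb4 it was -0.27 (-0.49 to -0.05) at E19 and 0.32 (0.16 to 0.49) at P8.

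**Figure D5:**
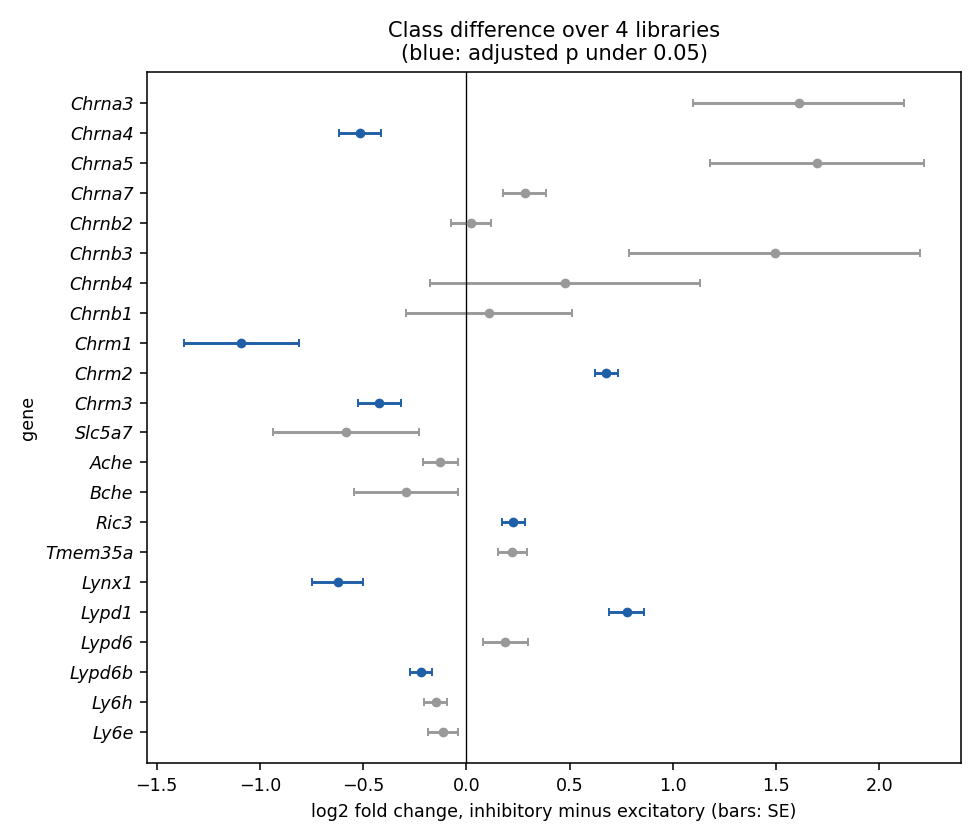
Log2 fold change between neuron classes, inhibitory minus excitatory (horizontal axis), of each tested subunit and of the tested genes of 4 related lists (vertical axis), with bars for the SE of edgeR's fit over 4 libraries; blue marks an adjusted p under 0.05. Chrna4 at -0.52 is the called subunit, and Chrna3 and Chrna5 at 1.61 and 1.70 have wide bars.

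The other genes of cholinergic signalling were followed in 4 lists. Of the 8 remaining nicotinic subunits, which include those of muscle and of inner-ear hair cells, 1 passed the filter, Chrnb1, and 0 were called by edgeR, 0 had an unadjusted p under 0.05, and DESeq2 called 0. No gene of that list averaged above 1 CPM in either neuron class. Of the 5 muscarinic receptors, G-protein coupled receptors for acetylcholine, 3 were tested and all 3 were called by edgeR, beside 17.2% of all genes tested, and DESeq2 called 2. Chrm2 was higher in inhibitory neurons (350 ± 98.6 against 210 ± 47.5 CPM, SD, n = 4), with a log2 fold change of 0.68 and an adjusted p of 0.000160 in edgeR. Chrm3 was lower (647 ± 64.2 against 853 ± 196 CPM, SD, n = 4) at -0.42 with an edgeR adjusted p of 0.0288, and Chrm1 was lower at -1.09 with an edgeR adjusted p of 0.0308, on 120 neuronal UMIs. Chrm4 had 0 UMIs in either neuron class.

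Of the 5 genes of acetylcholine synthesis, transport and breakdown, 3 were tested and 0 called at the adjusted threshold, 0 had an unadjusted p under 0.05 in edgeR, and DESeq2 called 0. The highest by CPM, not scaled to gene span, was Ache, which encodes acetylcholinesterase. It measured 42.4 ± 9.13 CPM (SD, n = 4) in excitatory neurons against 40.0 ± 11.9 CPM in inhibitory ones. Of the 9 chaperones and Ly6-type modulators of nicotinic receptors, 8 were tested and 4 called by edgeR, 2 in each direction, beside 17.2% of all genes tested, and DESeq2 called 2. Lypd1 and Ric3 were higher in inhibitory neurons, at log2 fold changes of 0.78 and 0.23 (edgeR adjusted p = 0.000639 and 0.0267). Ric3 encodes an endoplasmic reticulum chaperone of the receptors. Lynx1, which encodes a membrane-anchored modulator of nicotinic receptors, and Lypd6b were lower, at -0.62 and -0.22 (edgeR adjusted p = 0.0124 and 0.0267). The medians of the 4 lists were 0.11, -0.42, -0.29 and 0.04 in the order given, beside 0.02 over all genes tested.

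By stage, 3 modulators picked after their values were seen differed several-fold. Ly6h, a Ly6-type protein, was the highest of its list in excitatory neurons by CPM, not scaled to gene span. It measured 536, 394, 227 and 109 CPM in order of stage. Tmem35a, the receptor chaperone also called NACHO, measured 59.6, 30.1, 12.1 and 8.83 CPM in excitatory neurons, and 65.9, 36.2, 16.3 and 10.9 CPM in the inhibitory class. Lynx1 went the other way, with 8.15, 21.7, 24.6 and 40.9 CPM in excitatory neurons, and 4.53, 13.9, 12.9 and 35.7 CPM in the inhibitory class. Ric3 lay between 41.5 and 52.2 CPM in excitatory neurons at the 4 stages.

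Genes with a like pattern were ranked by Pearson r of log2(CPM + 5) over the 25 neuron subtypes with UMIs of all libraries summed, among 8780 genes. The 3 closest to Chrna3 were Scg3 (r = 0.85), Lman1 (0.84) and Tlk2 (0.82), all highest in IN12. The 3 closest to Chrna7 were Fam163b (0.72), Cacng3 (0.68) and Nkiras1 (0.67). Those closest to Chrnb2 were Tmem50a, Invs and Hsbp1, each at 0.77, and those closest to Chrnb3 were Gm7694, Mroh5 and Pcbp3, each at 0.80. The ranks depended on the set of subtypes: among inhibitory subtypes alone, 1 of the 3 was kept for Chrna3 and 0 for each of the other subunits, and among excitatory subtypes 0 were kept for any of the 4. The remaining 4 subunits did not reach 20 CPM in a neuron subtype on this scale and were not ranked.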

How the data were processed

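Unique molecular identifier counts per gene and nucleus were analysed as the authors deposited them, not normalised, with the deposited stage, class and subtype of each nucleus. Per the labels, nuclei of pooled tissue were captured with 10x 3′ v3 chemistry and aligned to a pre-mRNA reference built from mm10, and per the submitters' processing notes Cell Ranger 3.0.2 was used. The sources used here do not give how nuclei were filtered, doublets removed or classes named. A further 7 numeric columns of the nucleus table were not used. No nucleus was removed, and no doublet caller was run.

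Counts were summed per library and class or subtype (Python 3.11.15) and scaled to CPM. Log2 ratios between stages had 5 CPM added. Subtype means used libraries with at least 20 nuclei of the subtype. Zero counts were set to 3 for folds. For the class test, edgeR 4.0.16 (R 4.3.3) fitted library and class to 8 sums, with filterByExpr. On simulated counts for 14674 genes of this comparison it recovered 89.3% of genes changed by a log2 fold of 1 and 100% at 2. The simulation gave each gene 1 mean for all libraries and the same class fold at every stage. Its recovery therefore does not describe genes whose class difference varied with stage, such as Chrna3. DESeq2 1.42.0 was an alternative. The libraries pair the classes because both come from the same nuclei suspension. Positions are from GENCODE M21, which held 31011 of the 31053 identifiers, and promoter sequences from RefSeq.

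Named were the 8 subunits, the called genes of the 4 lists with the largest changes, the highest gene of each list, and for each subunit reaching 20 CPM in a subtype the 3 genes with the closest pattern. The members and lists were chosen with earlier results of these data known.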

Additional observations from a re-analysis of the deposited data

Results flagged for a closer look

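Chrna3 differed between E19 and P21 in opposite directions in the 2 neuron classes. The log2 ratio of P21 over E19, with 5 CPM added, was -1.65 in excitatory and 0.29 in inhibitory neurons, and this difference between the classes was not tested, since each stage is 1 library. The inhibitory value became -0.090 with subtypes weighted equally and -0.053 without IN3.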

How the results depend on the processing

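Depth limits Chrna5, Chrnb4 and, before P21, Chrna6 and Chrnb3, which rest on few UMIs, and with 1 library per stage no stage difference has a replicate check. In the class test, 2545 genes were called, 1654 by DESeq2, 183 with no library block (no pairing of the classes within libraries) and 1232 to 2328 with 1 library left out. Subunits called went from 1 to 2 by DESeq2, 2 with neurons classed by their own UMIs, 6 with no filter on low counts, 0 with no library block and 0 to 4 with 1 library left out. DESeq2 called 2 of the muscarinic receptors against 3 by edgeR, and 2 of the chaperones and Ly6-type modulators against 4. The share of all genes called is not given for these altered settings, so nothing is read from the counts of subunits or list genes called in them. Chrna4 kept its sign throughout, with an adjusted p between 0.00107 and 0.886, the last with no library block. Signs reversed for Chrnb2 (-0.025 by own UMIs, -0.044 to 0.055 with 1 library left out, the lower without P8), Chrnb3 (-0.12 by DESeq2, -0.59 to 1.93 with 1 library left out, the lower without P21) and Chrnb4 (-0.32 to 1.29 with 1 library left out, the lower without P8), and the cause was not tested.

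Of the stage log2 ratios, Chrna3 in excitatory neurons was -2.93 with 1 CPM added, -0.68 with 20 CPM added, -0.96 with equal subtypes and -1.38 thinned. Chrna3 in inhibitory neurons reversed to -0.090 with equal subtypes and -0.053 without IN3. Chrna6 in inhibitory neurons was 2.83 and 0.49 with 1 and 20 CPM added, 1.69 thinned and 0.54 without IN3, and Chrnb3 there was 4.41 and 1.01, 1.71 with equal subtypes, 1.98 thinned and 0.66 without IN3. Chrna7 was 0.88 in excitatory neurons with equal subtypes and 0.94 in inhibitory neurons with 20 CPM added. Leaving out IN3 or EN10 was chosen after seeing the data.

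With 1 library left out, the highest subtype means were 72.6 to 79.7 CPM for Chrna3, 17.7 to 25.7 for Chrna4, 5.68 to 7.70 for Chrna5, 7.94 to 20.4 for Chrna6, 136 to 172 for Chrna7, 25.5 to 30.7 for Chrnb2, 1.13 to 34.9 for Chrnb3 and 0 to 8.64 for Chrnb4. With at least 50 nuclei the Chrnb4 mean in EN10 was 25.9 CPM, and IN12 had no such library. Of P21 shares, IN3 nuclei with Chrna3 were 8.73% thinned to 2300 UMIs, 17.5% at 4000 and 53.2% unthinned, with Chrna6 7.94%, 15.9% and 35.7%, and with Chrnb3 11.1% and 37.3% unthinned, and IN4 nuclei with Chrna7 were 23.4%, 45.2% and 71.3%. By Spearman rho, 0 of the 3 named genes were kept for Chrnb2 and for Chrnb3.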
